A study of Mus musculus with 12 samples.

Results

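The comparison described here holds 6 libraries of wild-type mice, of 12 libraries in the whole series: 3 from the hemisphere with the occluded artery (ipsilateral) and 3 from the opposite hemisphere (contralateral), 1 of each from mice 296, 297 and 474. They were taken by their titles, and the libraries of a mouse were paired by the number in the title. The cells are astrocytes of adult mouse brain, pulled out of the dissociated tissue through the astrocyte antigen ACSA-2. The tissue was taken 24 h after transient middle cerebral artery occlusion (tMCAO), a stroke model in which the artery is blocked and then reopened. The mice were C57BL/6 of postnatal day 90 to 120. They carried Gfap-CreERT2+/-, in which the Gfap promoter drives a Cre that acts only when tamoxifen is given, together with floxed alleles, and they were given corn oil, the carrier, in place of tamoxifen. The 6 libraries of mice labelled KO (295, 298 and 300), of the same genotype but given tamoxifen and occluded in the same way, entered the model only to estimate the spread and to test whether their response differed. No library came from a mouse without an occlusion, so the contralateral hemisphere is the only control.

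Astrocytes take up glutamate, GABA and potassium around synapses, supply neurons with lactate and lipids, and cover vessels with their endfeet. After ischaemia they become reactive: they change shape, secrete cytokines and matrix, and give up part of the expression programme of the resting cell. Protein synthesis, on which such a change depends, needs ribosomes that are assembled in the nucleolus, tRNAs charged with amino acids, chaperones that fold the product and carriers that move subunits through the nuclear pore.

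The 6 wild-type libraries held 11935558 to 13448183 counts, and 15571 of the 48709 genes in each table had enough counts to be tested. Levels are given in CPM, counts scaled to a common library size, and sets of 3 values stand in the order of mice 296, 297 and 474. A log2 fold change (ipsilateral over contralateral) of 1 is a 2-fold rise, and it is given ± its SE. In some genes the deposited counts were low beside the reads implied by the deposited RPKM and the exon length of the GENCODE annotation. As a share, with the median gene set to 1, this was 0.45 for Tars, 0.55 for Rbpj, 0.44 for Id4, 0.57 for Cpt1a, 0.53 for Nlgn3, 0.49 for Arntl and 0.30 for Ctsl. Their level may be understated, but the gene length behind the deposited RPKM is not known, so this is not shown. The selected cells were rich in astrocyte RNA but not pure. The 16 astrocyte markers together stood at 26370, 26410 and 33070 CPM contralaterally and at 17030, 15360 and 17690 ipsilaterally, and 15 of them fell. Gfap, the intermediate filament of reactive astrocytes, rose in the blocked fit (0.66 ± 0.19; edgeR adjusted p = 0.0337) but not without the block (0.207) or without mouse 296 (0.073) or 474 (0.17). The 12 oligodendrocyte markers stood at 19490, 20290 and 20890 CPM and at 19050, 24510 and 16320, with 1 called, 0 without mouse 296 or 297. Microglial markers stood at 790.5, 744 and 659 CPM contralaterally and at 1322, 1985 and 1548 ipsilaterally, with 7 of 15 called higher (1 without the mouse as a block, 1 without mouse 297 and 2 without mouse 474). Markers of monocytes and macrophages stood at 71.6 to 82.8 CPM contralaterally and 114 to 195 ipsilaterally, with 7 of 11 called higher (3 without the block or without mouse 297, 4 without mouse 474). Of 8 neutrophil markers 4 rose (0 without the block or without mouse 297, 1 without mouse 474), and the defining markers Ly6g and Camp had 3 and 6 counts over the 6 libraries. Of 13 markers of pericytes and smooth muscle 7 fell, from a sum of 1184 to 1357 CPM to one of 721 to 999. The neutrophil sum was 68.9 and 147 CPM in the libraries of mouse 296 and 13.9 to 34.1 in those of the other mice. Xist, the RNA of the inactive X chromosome, was at 0.696 and 0.315 CPM in mouse 296 and at 1271 to 1691 in the other mice. Pairing within a mouse takes such a difference in level out of the comparison, but not a difference in response. Mouse 296 also had the smallest response (median size of the log2 ratio between hemispheres 0.327, against 0.472 and 0.415). With 1 such mouse, sex and other traits of the animal cannot be told apart. In bulk RNA, fewer cells of a type and less RNA per cell cannot be told apart. The part that these other cells have in the results was not tested, except where a value given beside a result bears on it.

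**Figure D1:**
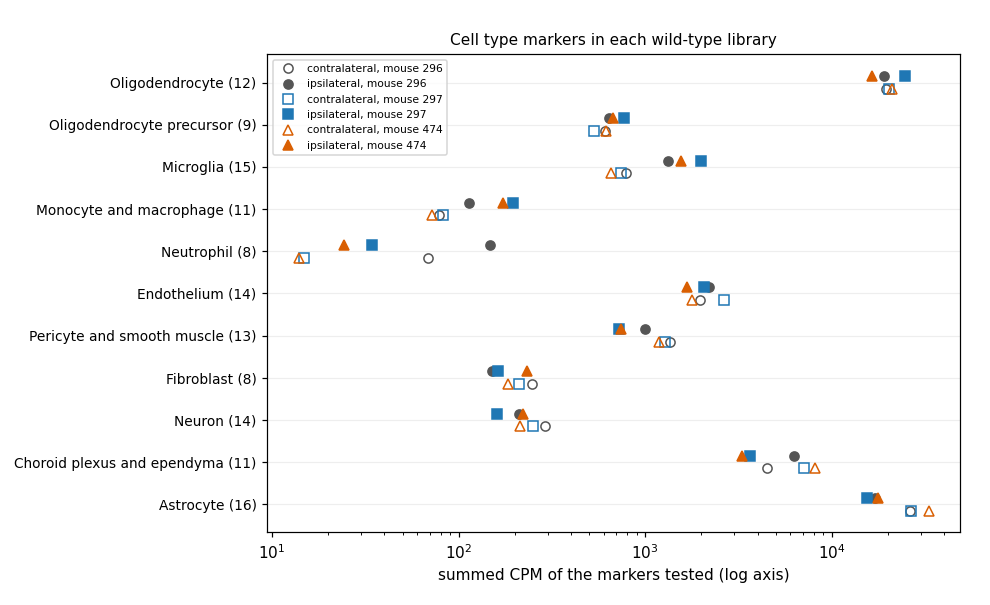
Summed CPM (log axis) of the markers of 11 cell types, with the number of markers tested in brackets, in each wild-type library. Open symbols are contralateral and filled ones ipsilateral libraries. Astrocyte and pericyte sums lie lower ipsilaterally in every mouse and microglial sums higher, while oligodendrocyte sums overlap.

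Over all genes, edgeR called 2289 of 15571 higher (14.7%) and 2352 lower (15.1%) at an adjusted p of 0.05 with the mouse as a block, and the median log2 fold change was -0.05. Without the block the numbers were 1497 (9.61%) and 1485 (9.54%), without mouse 297 they were 1331 (8.43%) and 1515 (9.6%), and without mouse 474 they were 1194 (7.56%) and 1435 (9.08%). A core of 874 higher (5.61%) and 874 lower (5.61%) genes was called in the blocked fit, without the block and with any mouse left out, in the same direction in all 3 mice. These are called steady in what follows. Groups of genes are described by how many of their tested members were called and by their median, to be read against these shares and this median for all genes. Ribosome biogenesis stood at the high end, with 54 of 59 members called higher. Transcription factors of astrocyte identity stood at the low end, with 26 of 29 called lower. Beside up to 4 steady members of a list with the smallest adjusted p, genes were named after their values were seen. Over all genes, every ipsilateral library lay above every contralateral one in 2699 (17.3%) and below in 2588 (16.6%). Where single genes below are said not to overlap, they were picked by their values, so this is no further evidence.

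**Figure D2:**
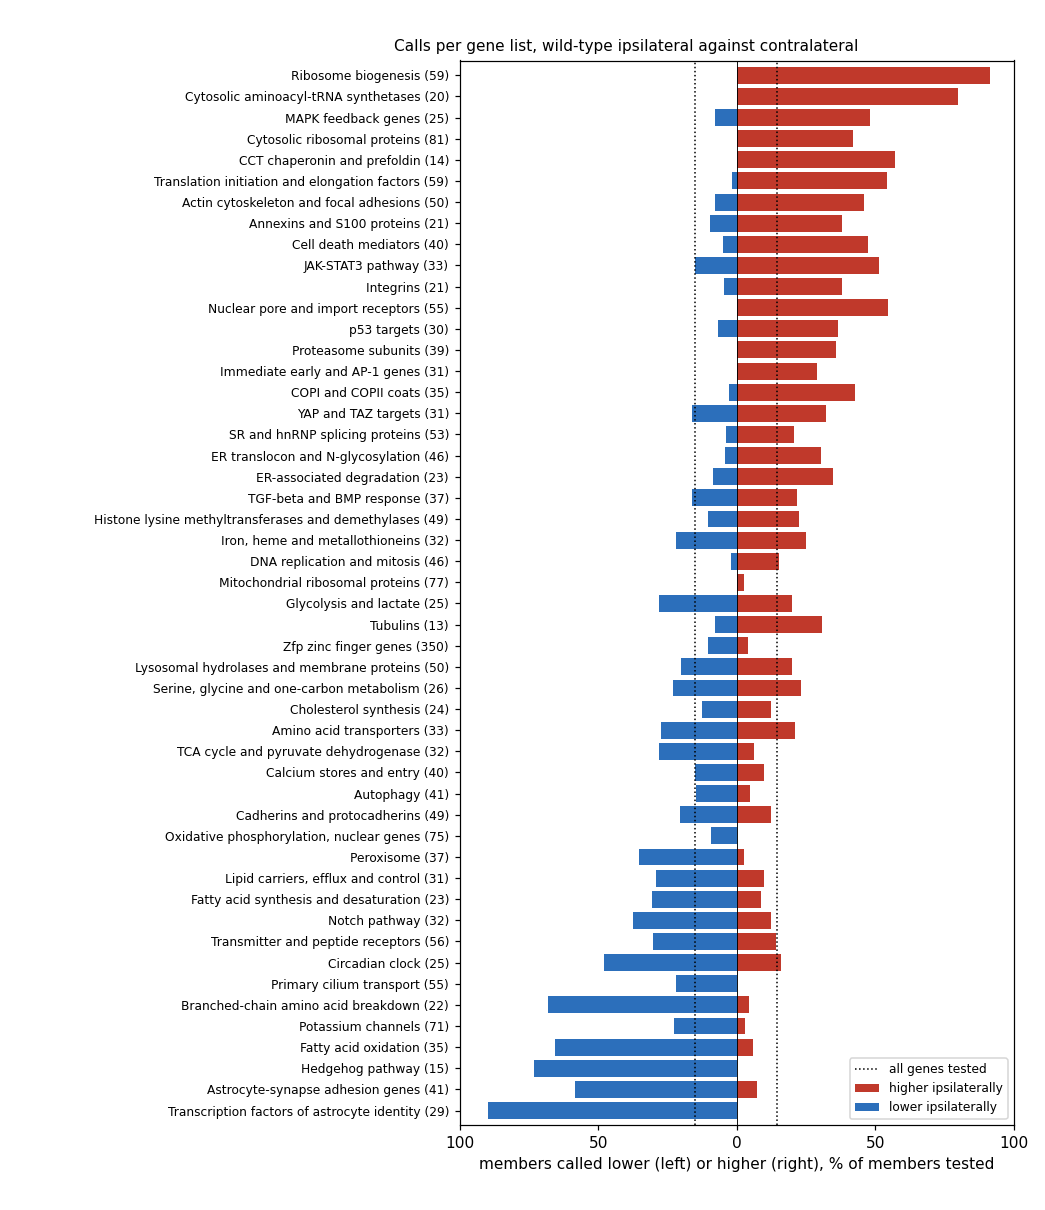
Share of the tested members of 50 gene lists called lower (bars to the left) or higher (bars to the right) in wild-type mice, ordered by median log2 fold change, with the number tested in brackets. Dotted lines mark the shares over all genes tested, 15.1% lower and 14.7% higher. Ribosome biogenesis and aminoacyl-tRNA synthetases head the order, and fatty acid oxidation, Hedgehog, synaptic adhesion and identity factors close it.

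Ribosome assembly was the group with the most uniform rise. Of 59 genes 54 rose and 0 fell, with a median of 0.83, and 39 of them were steady (50 rose without the block, and 42 to 51 with a mouse left out). Heatr1, which is needed for transcription and processing of the large rRNA precursor, stood at 29.8, 26.5 and 25.3 CPM contralaterally and at 67.4, 82.3 and 73.6 ipsilaterally (1.45 ± 0.13; edgeR adjusted p = 0.000783). The lowest ipsilateral library thus lay far above the highest contralateral one. Ddx21, an RNA helicase of the nucleolus, rose from 70.0, 49.3 and 47.7 to 152, 178 and 165 CPM (1.59 ± 0.17; edgeR adjusted p = 0.000942). Nop58, a core protein of the box C/D particles that methylate rRNA, rose from 28.2, 24.8 and 20 to 65.4, 86.6 and 89.0 CPM (1.72 ± 0.21). Rrp12 (1.66 ± 0.18) and Tsr1 (1.35 ± 0.15), which act in the maturation of the small subunit, rose as well. The rise covered the steps of the pathway. Polr1a, the large subunit of RNA polymerase I, rose by 0.68 ± 0.10 and its initiation factor Rrn3 by 0.95 ± 0.12. The nucleolar proteins Ncl and Npm1 rose by 1.08 ± 0.15 and 1.04 ± 0.12, and Nhp2 and Gar1, proteins of the H/ACA particles that convert uridine to pseudouridine, by 1.25 and 1.01. The list as a whole summed to 2394, 1956 and 1946 CPM contralaterally and to 3866, 4318 and 4010 ipsilaterally.

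Promoter sequences were set beside this group, after its values were seen, because an E-box, the letters CACGTG, is bound by Myc among other factors and Myc is known to drive ribosome assembly genes. Windows of 300 bases, 250 before and 50 after the start, were taken from RefSeq (GRCm38.p6), where 9294 of the 15571 tested genes had exactly 1 window. The letters stood in the window of 12 of 48 ribosome assembly genes (25.0%), 9 of 41 translation factors (22.0%) and 909 of all 9294 genes (9.78%). They also stood in 11 of 35 lysosomal genes (31.4%), a list with 10 rises and 10 falls. The E-box is palindromic, so it reads alike on both strands, and it forms the core of the longer CLEAR element, the letters TCACGTGA, which 168 of these genes hold. In 9 of the 12 ribosome assembly genes (75%) all matches lay within the 50 bases after the start, against 156 of the 909 genes with an E-box (17.2%). Shown are the other 3, whose E-box lies before the start, on the strand of the gene, with the motif in capitals. They are Rrn3 at chr16:13780454-13780519 (plus strand), Imp4, of the small subunit processome, at chr1:34439678-34439743 (plus strand) and Nop2, an rRNA methyltransferase, at chr6:125131793-125131858 (plus strand).
Rrn3: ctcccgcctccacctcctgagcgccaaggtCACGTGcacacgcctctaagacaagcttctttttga
Imp4: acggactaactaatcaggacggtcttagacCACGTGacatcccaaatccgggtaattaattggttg
Nop2: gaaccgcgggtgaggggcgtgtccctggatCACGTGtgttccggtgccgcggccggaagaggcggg
These matches describe the letters only. Myc itself stood at 31.9, 12.2 and 11.3 CPM contralaterally and at 63.9, 46.1 and 39.2 ipsilaterally (1.55 ± 0.21; edgeR adjusted p = 0.00177), higher ipsilaterally in every mouse and without overlap. The part of Myc in the rise of ribosome assembly genes was not tested.

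The ribosomal proteins themselves rose less evenly. Of 81 cytosolic ribosomal protein genes 34 rose and 0 fell (median 0.54), but 21 were called without the block, 48 without mouse 296, 3 without mouse 297 and 4 without mouse 474. The medians in mice 296, 297 and 474 were 0.15, 0.93 and 0.61, so mouse 296 hardly moved. Rps15a, a protein of the small subunit, stood at 132, 108 and 126 CPM and at 184, 257 and 242 (0.89 ± 0.17; edgeR adjusted p = 0.00692), and the scaffold Rack1 at 252, 205 and 240 and at 363, 486 and 447 (0.89 ± 0.17). Many ribosomal protein genes have processed pseudogenes that can take up their reads, so single values are less certain. The ribosome of the mitochondrion did not take part. Of 77 mitochondrial ribosomal protein genes 2 rose, Mrps18b and Mrps6 (1, Mrps18b, without the block, and 5 on log2(TPM + 1)), and the median was 0.01. Without mouse 297 a further 2 were called lower.

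Translation factors rose with the ribosomes. Of 59 genes 32 rose and 1 fell (median 0.49), with 15 called higher without mouse 297 and 18 without mouse 474. Eif1a, which helps the small subunit to scan for the start codon, stood at 38.2, 33.4 and 27.6 CPM and at 66.8, 66.4 and 68.5 (1.03 ± 0.12; edgeR adjusted p = 0.00108). Etf1, the release factor that ends translation, stood at 99.1, 66.8 and 64.0 CPM and at 157, 147 and 132 (0.95 ± 0.12). The groups were apart in both genes. The list also holds regulators that restrain translation, such as the double-stranded RNA kinase gene Eif2ak2, which rose by 0.93 ± 0.15. The RNA helicase of the cap complex, Eif4a1, rose by 1.20 ± 0.19 and the cap-binding protein gene Eif4e by 0.61 ± 0.12. The fall was in Eif2d, which was not called when any mouse was left out.

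Enzymes that charge tRNAs with amino acids, the cytosolic aminoacyl-tRNA synthetases, rose in 16 of 20 and fell in 0 (median 0.70). Without mouse 297 and without mouse 474 the number was 7 each, and without mouse 296 it was 17. Iars, which charges isoleucine tRNA, stood at 84.5, 81.7 and 78.8 CPM and at 136, 280 and 208 (1.29 ± 0.19; edgeR adjusted p = 0.00231). The contralateral libraries lay close together and the ipsilateral ones spread, with mouse 296 lowest. Gars, the glycine enzyme, stood at 68.5, 57.3 and 56.2 CPM and at 121, 142 and 113 (1.05 ± 0.16). Tars, the threonine enzyme, rose by 0.92 ± 0.12. A few genes known to answer a shortage of amino acids were looked at after their values were seen. Asns, asparagine synthetase, stood at 5.13, 8.02 and 4.88 CPM and at 19.8, 55.7 and 53.9 (2.75 ± 0.35; edgeR adjusted p = 0.00177). Atf4, the transcription factor of that response, rose by 0.71 ± 0.19 (edgeR adjusted p = 0.0221, 0.12 without mouse 297 and 0.072 without mouse 474). Trib3, another of its targets, stood at 2.52, 2.86 and 2.65 CPM and at 4.80, 18.2 and 14.9, the rise again being smallest in mouse 296 (2.08 ± 0.46; edgeR adjusted p = 0.0128, 0.066 without mouse 297 and 0.068 without mouse 474). These single genes stand for no group. In the list of serine, glycine and one-carbon metabolism 6 of 26 genes rose and 6 fell (3 and 4 without mouse 297, 4 and 3 without mouse 474). Phgdh and Psph, of serine synthesis, fell and are described below.

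A composite site for C/EBP and ATF factors, the letters TGATGNAA on either strand, stood in the window of 5 of the 12 synthetase genes with 1 window (41.7%). Of all 9294 genes 203 held it (2.18%), of those called higher 54 of 1427 (3.78%) and of those called lower 17 of 1337 (1.27%). It was in 0 of 50 cytosolic ribosomal protein genes, 1 of 48 ribosome assembly genes and 1 of 41 translation factors. Other motifs were searched in the same 12 windows, and the E-box stood in 4 of them (33.3%). With 12 windows the shares among synthetases are imprecise. In Iars and Yars the match to the composite site lay only after the start. Shown are the other 3 synthetases, on the strand of the gene, with the motif in capitals. They are Tars at chr15:11399659-11399703 (minus strand), Gars at chr6:55037941-55038000 (plus strand) and Aars, the alanine enzyme, at chr8:111033700-111033767 (plus strand).
Tars: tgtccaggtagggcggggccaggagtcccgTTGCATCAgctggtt
Gars: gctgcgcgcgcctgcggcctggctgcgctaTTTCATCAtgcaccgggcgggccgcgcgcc
Aars: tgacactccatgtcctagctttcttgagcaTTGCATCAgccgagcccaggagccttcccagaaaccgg
In all 3 the gene's own strand carries the reverse complement of the letters above. Tars and Gars hold it within 30 bases of the start, and Aars further upstream, where it has 2 matches in its window.

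Transport through the nuclear pore also rose. Of 55 genes of the pore and its carriers 30 rose and 0 fell (median 0.42), 20 of them steady, with 21 to 28 called when a mouse was left out. Xpo1, the main export receptor, stood at 45.5, 59.4 and 53.5 CPM and at 99.3, 123 and 123 (1.13 ± 0.10; edgeR adjusted p = 0.000783). Ipo5, an import receptor of ribosomal proteins and histones, stood at 130, 105 and 113 CPM and at 262, 323 and 265 (1.29 ± 0.14), and Ipo7 rose by 1.22 ± 0.14. Every ipsilateral library lay above every contralateral one in these genes. Ran, the GTPase that gives transport its direction, rose by 1.05 ± 0.13. Of the 14 genes of the CCT chaperonin and prefoldin, which fold actin and tubulin, 8 rose and 0 fell (median 0.53). All 8 were subunits of CCT. Cct8 stood at 108, 95.9 and 112 CPM and at 178, 207 and 204 (0.90 ± 0.11; edgeR adjusted p = 0.00124). Of 39 proteasome subunits 14 rose and 0 fell (median 0.34), 12 without the block, 7 without mouse 297 and 8 without mouse 474. They included the interferon-inducible subunit Psmb8 (1.06 ± 0.15), which is also abundant in immune cells, and the standard subunits Psma3 (0.79 ± 0.11) and Psmd1 (0.76 ± 0.12). Splicing proteins of the SR and hnRNP families moved less, with 11 of 53 higher (20.8% against 14.7% of all genes, and 5 genes without mouse 297 or 474) and 2 lower.

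**Figure D3:**
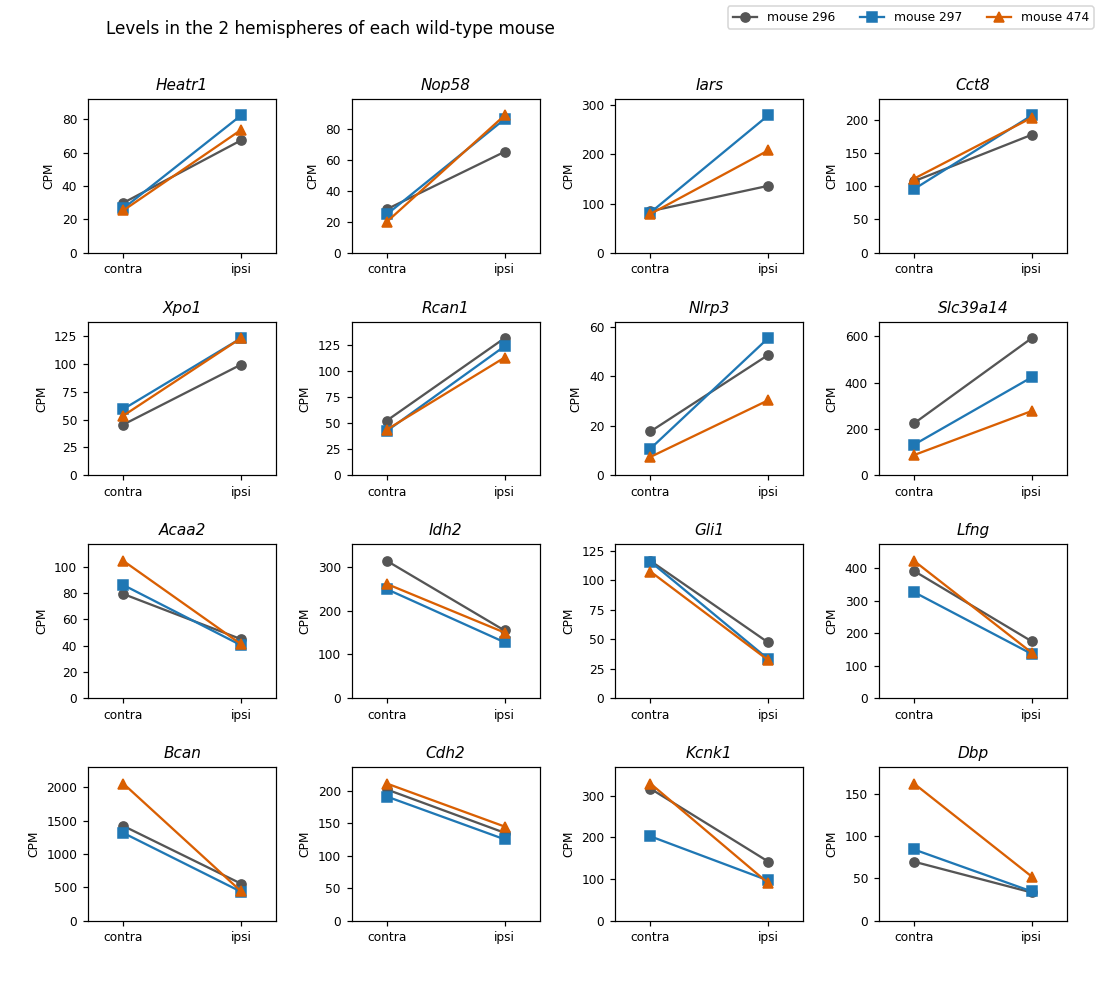
CPM of 16 genes of different groups in the contralateral and ipsilateral library of each wild-type mouse, joined by lines. The first 8 genes rose and the last 8 fell, each in all 3 mice. Iars and Nop58 rose least in mouse 296, and the fall of Dbp was steepest in mouse 474.

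The early secretory pathway rose in part. Of 35 coat proteins of COPI and COPII vesicles 15 rose and 1 fell (median 0.31), with 10 higher without the block and 7 without mouse 297 or 474. Sec23b, of the COPII inner coat, stood at 81.7, 72.7 and 70.9 CPM and at 117, 113 and 103 (0.57 ± 0.09; edgeR adjusted p = 0.00313), and Copb1, of the COPI coat, at 107, 91 and 99.6 and at 145, 158 and 148 (0.60 ± 0.11). The fall was in Copz2, an isoform of the COPI zeta subunit (-0.88 ± 0.15). In the translocon and N-glycosylation list 14 of 46 rose and 2 fell. That count was 9 without the block, 3 without mouse 297 and 6 without mouse 474. Stt3a, the catalytic subunit that adds the glycan during translocation, rose from 69.3, 68.4 and 69.5 to 109, 143 and 132 CPM (0.88 ± 0.11). Of 23 genes of ER-associated degradation 8 rose and 2 fell. Without the block 3 rose and 0 fell, without mouse 297 1 rose and 1 fell, and without mouse 474 3 rose and 0 fell. Edem1, a lectin that hands misfolded glycoproteins to this pathway, stood at 55.4, 48.6 and 58.2 CPM and at 83.1, 106 and 91.8 (0.79 ± 0.15).

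While the machinery of protein synthesis rose, the enzymes that burn fatty acids fell. Of 35 genes of fatty acid oxidation and ketone metabolism 23 fell and 2 rose (median -0.54), 11 of the falls being steady. Of these, 16 fell without the block and 12 without mouse 474. Acaa2, the thiolase of the mitochondrial spiral, stood at 79.5, 86.4 and 105 CPM contralaterally and at 45, 40.4 and 41.2 ipsilaterally (-1.09 ± 0.12; edgeR adjusted p = 0.000947). The groups were far apart. Ppargc1a, a coactivator that promotes mitochondrial gene expression, fell from 36, 48.0 and 51.0 to 19.2, 17.7 and 29.1 CPM (-1.05 ± 0.16). Cpt1a, which carries long-chain fatty acids to the mitochondrion, fell by 0.65 ± 0.13 in the blocked fit (edgeR adjusted p = 0.00834), but not without the block (0.0685) or without mouse 474 (0.051). The rises, both steady, were Acsl5 and Acsl4, which activate fatty acids. Acsl5 is described with its relative Acsl6 below.

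Peroxisomal genes fell in 13 of 37 and rose in 1 (median -0.22), with 9 falls without the block, 9 without mouse 296 and 5 without mouse 474. Hacl1, which shortens branched fatty acids, fell by 0.71 ± 0.12, while Agps, of ether lipid synthesis, rose by 0.64 ± 0.11. Breakdown of branched-chain amino acids fell in 15 of 22 genes and rose in 1 (median -0.44). Without the block 8 fell, without mouse 296 7 and without mouse 474 5. Mccc2, of leucine breakdown, stood at 31.4, 34.2 and 37.9 CPM and at 18.2, 19.8 and 15.8 (-0.95 ± 0.15; edgeR adjusted p = 0.00274). Bckdha, of the dehydrogenase complex that commits these amino acids to breakdown, stood at 132, 87.7 and 102 CPM and at 74.3, 54.9 and 43.8 (-0.91 ± 0.14). Ipsilateral libraries were below all contralateral ones in both genes. In the TCA cycle and at its entry 9 of 32 fell and 2 rose (median -0.12). Without mouse 474 5 fell, and 0 rose without the block or without mouse 296 or 474. Idh2, the NADP-dependent isocitrate dehydrogenase of mitochondria, fell from 314, 249 and 261 to 155, 128 and 150 CPM (-0.93 ± 0.10; edgeR adjusted p = 0.000979). The count for the respiratory chain depended on the fit. Of 75 nuclear genes of oxidative phosphorylation 7 fell and 0 rose, 9.33% against 15.1% of all genes lower, and none was steady, while 67 of the 75 fold changes were below 0. The number lower was 5 without the block, 1 without mouse 296, 0 without mouse 474, 10 on log2(TPM + 1) and 22 with the oligodendrocyte markers as a covariate. Their medians were -0.23, 0.08 and -0.46 in the 3 mice, so the direction differed between mice. Astrocyte markers fell in the same libraries, and their part in these falls was not tested.

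Several enzyme and transporter families showed unequal change among relatives. The pairs that follow were chosen after their values were seen. In glycolysis, where 5 of 25 genes rose and 7 fell (3 fell without the block, 4 without mouse 297 or 474, and 3 rose without mouse 297), Hk2, the inducible hexokinase, stood at 25.2, 11.5 and 10.3 CPM contralaterally and at 44, 35.1 and 31.6 ipsilaterally (1.33 ± 0.18; edgeR adjusted p = 0.00177). Hk1, the common form, did not pass (-0.15 ± 0.11; edgeR adjusted p = 0.323). Ldhb, the lactate dehydrogenase subunit of oxidative tissue, fell from 352, 376 and 594 to 195, 184 and 206 CPM (-1.14 ± 0.16), and Ldha, the glycolytic form, stood at 166, 140 and 180 and at 219, 272 and 249 (0.61 ± 0.14; edgeR adjusted p = 0.0149, 0.0556 without the block and 0.084 without mouse 297). Slc16a3, a lactate exporter, rose by 1.19 ± 0.19, and Pfkfb3, which makes an activator of phosphofructokinase, by 0.81. The muscle-type phosphofructokinase Pfkm fell by 1.23 ± 0.14. Thus changes within the pathway went both ways, and its median was -0.01.

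Among acyl-CoA synthetases, Acsl6 fell from 608, 585 and 816 to 269, 216 and 272 CPM (-1.40 ± 0.16), and Acsl5 rose from 14.2, 18.1 and 14.9 to 40.9, 38.7 and 34.0 (1.27 ± 0.13; edgeR adjusted p = 0.000942). Neither gene overlapped between hemispheres. Of the aminotransferases that open the breakdown of branched-chain amino acids, the cytosolic Bcat1 stood at 144, 69.4 and 58.8 CPM and at 246, 258 and 158 (1.36 ± 0.25), while the mitochondrial Bcat2 fell by 0.71 ± 0.15 (edgeR adjusted p = 0.00871, 0.052 without mouse 474). In folate metabolism the cytosolic dehydrogenase Aldh1l1, much used as an astrocyte marker, fell from 410, 277 and 336 to 242, 195 and 191 CPM. Its mitochondrial relative Aldh1l2 stood at 3.22, 7.22 and 5.70 CPM and at 6.46, 44.5 and 41.1 (2.27 ± 0.32; edgeR adjusted p = 0.00205). The groups overlap in Aldh1l2, since the ipsilateral library of mouse 296 lies below a contralateral one. Mthfd1l (1.19 ± 0.19) and Mthfd2 (0.83 ± 0.22; edgeR adjusted p = 0.0248, 0.12 without mouse 297 or 474), further mitochondrial folate enzymes, rose, while Phgdh (-0.75 ± 0.18) and Psph (-0.57 ± 0.11), of serine synthesis, fell. Mthfd1l was lost without the block (edgeR adjusted p = 0.0684), and Phgdh without mouse 474 (0.07).

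**Figure D4:**
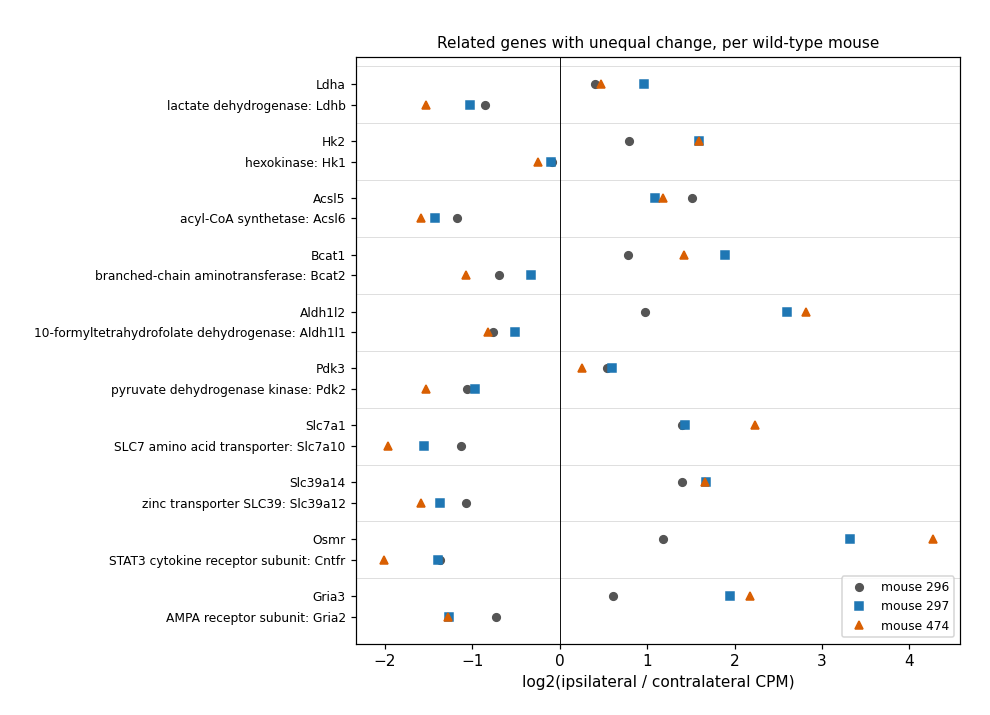
Log2 ratio of ipsilateral to contralateral CPM in each wild-type mouse for 10 pairs of related genes chosen after their values were seen. In each pair the upper gene lies to the right of 0 and the lower one to the left in all 3 mice. The lower gene was called in 9 pairs (Hk1 did not pass) and the upper one in all 10 by the blocked fit.

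Transporters divided in the same way. Of 33 amino acid transporters 7 rose (4 without mouse 474) and 9 fell. Those that fell include carriers that take up transmitters: Slc1a2 and Slc1a3, the glutamate transporters (-0.91 ± 0.18 and -0.88 ± 0.17), Slc6a11, a GABA transporter (-1.46 ± 0.26), Slc6a13, and Slc7a10, an exchanger of D-serine and small amino acids (-1.55 ± 0.21). Slc6a11 stood at 1489, 1918 and 2268 CPM and at 822, 466 and 805. Slc6a13 is also 1 of the fibroblast markers, of which 2 of 8 fell (25% against 15.1% of all genes) and 0 rose. The part of fibroblasts in its fall was not tested. Those that rose include carriers of amino acids as nutrients or for glutathione. Slc7a1, for arginine and lysine, stood at 41.2, 70.6 and 42.2 CPM and at 109, 191 and 199 (1.69 ± 0.19; edgeR adjusted p = 0.00101), and Slc7a8, for large neutral amino acids, at 24.4, 20 and 13.5 and at 49.7, 98.7 and 67.0. Slc7a11, the cystine-glutamate exchanger, stood at 83.8, 103 and 172 CPM and at 107, 796 and 605, so mouse 296 again moved least and the groups overlapped (1.72 ± 0.43; edgeR adjusted p = 0.0213, 0.052 without mouse 297 and 0.079 without mouse 474). The zinc transporters Slc39a14, which also carries iron and manganese, and Slc39a12 went opposite ways. Slc39a14 stood at 224, 132 and 87.4 CPM and at 592, 423 and 277 (1.58 ± 0.13; edgeR adjusted p = 0.000763), and Slc39a12 at 305, 345 and 472 and at 145, 134 and 157 (-1.34 ± 0.17). In the list of iron, heme and metallothionein genes 8 of 32 rose (5 without mouse 297) and 7 fell (4 without mouse 474). In the blocked fit the metallothionein Mt2 rose by 0.76 ± 0.18 and Mt3, the brain form, fell by 0.61 ± 0.13. Mt2 was lost without the block (edgeR adjusted p = 0.368) and without mouse 297 (0.08), and Mt3 without mouse 474 (0.067).

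Lipid genes had more falls than rises in the carrier and fatty acid lists, and most did not pass. Of 31 lipid carriers and efflux genes 9 fell and 3 rose (median -0.23; without mouse 474 5 fell), and of 23 genes of fatty acid synthesis 7 fell and 2 rose (0 without mouse 296 or 297). Apoe, the main apolipoprotein of astrocytes, stood at 5497, 4794 and 6620 CPM and at 2296, 1757 and 1888 (-1.51 ± 0.18; edgeR adjusted p = 0.00108). Srebf1, the transcription factor of fatty acid synthesis, stood at 668, 608 and 703 CPM and at 344, 325 and 309 (-1.02 ± 0.12). Both fell to a level below every contralateral library. Plin2, the coat protein of lipid droplets, rose from 50.9, 33.2 and 32.1 to 99.1, 145 and 130 CPM (1.70 ± 0.26; edgeR adjusted p = 0.00321), and macrophages also express it. Cholesterol synthesis showed no common direction: 3 of 24 rose and 3 fell (8 fell with the oligodendrocyte markers as a covariate, and the numbers were 0 and 5 without mouse 297, 1 and 1 without mouse 474, and 1 and 3 without mouse 296).

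Transcription factors that specify astrocytes or keep their state fell almost as a block. Of 29 tested 26 fell and 0 rose (median -0.80), 17 of them steady, with 20 to 24 called when a mouse was left out. Their medians in the 3 mice were -0.72, -0.78 and -0.79. Of the 16 astrocyte markers 15 fell in the same libraries, with a median of -0.89 (-0.76, -0.92 and -1.08 in the 3 mice). Their part in this fall was not tested, nor was it in the falls of Hedgehog, Notch, synaptic, channel and receptor genes below. Rfx4, a factor of neural progenitors and astrocytes, stood at 91.3, 79.8 and 122 CPM and at 39.6, 32.5 and 52.5 (-1.24 ± 0.12; edgeR adjusted p = 0.000847). Dbx2 (-1.32 ± 0.13), Lhx2 (-1.30) and Pax6 (-1.16), homeobox and paired box genes of forebrain patterning, fell, as did Emx2 and Otx1. Sox9, a general factor of astrocytes, fell by 0.51 ± 0.13 in the blocked fit (edgeR adjusted p = 0.019), but not without the block (0.0712) or without mouse 297 (0.11).

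The Hedgehog pathway, through which neurons are known to shape mature astrocytes, fell in 11 of 15 genes and rose in 0 (median -0.57). Without the block 7 fell, without mouse 297 6, without mouse 474 7 and on log2(TPM + 1) 7. Gli1, its transcription factor and target, stood at 116, 116 and 107 CPM and at 47.2, 33.1 and 32.2 (-1.61 ± 0.17; edgeR adjusted p = 0.000942). The 3 contralateral libraries were nearly equal and the ipsilateral ones all far below. The other Gli factors, Gli2 (-1.01 ± 0.15) and Gli3 (-0.80 ± 0.12), and the coreceptor Boc (-0.57 ± 0.12) were steady too. The receptor Ptch1, also a target, fell from 238, 371 and 387 to 192, 172 and 206 CPM (-0.78 ± 0.18; edgeR adjusted p = 0.0146, 0.082 without mouse 297 and 0.075 without mouse 474). In the Notch pathway 12 of 32 genes fell and 4 rose (median -0.30). The number higher was 1 without the block and 1 with any mouse left out. The glycosyltransferase Lfng stood at 391, 326 and 422 CPM and at 174, 136 and 140 (-1.34 ± 0.14; edgeR adjusted p = 0.000942), and the target Nrarp fell by 1.51 ± 0.16. Notch1, the receptor, did not pass (-0.01 ± 0.11; edgeR adjusted p = 0.955), and the DNA-binding factor Rbpj rose by 0.66 ± 0.12. Heyl, also a Notch target, is expressed in pericytes as well, whose markers fell.

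Clock genes differed between the hemispheres of an animal. Of 25 tested 12 fell and 4 rose (median -0.35), with 5 lower without the block, 10 without mouse 296, 8 without mouse 297 and 9 without mouse 474, and with 2 higher without the block or without mouse 297 or 474. Dbp, an output gene of the clock, stood at 69.8, 84.3 and 162 CPM and at 33.4, 34.6 and 52.3 (-1.33 ± 0.14; edgeR adjusted p = 0.000942). Its relative Hlf fell by 1.18 ± 0.18, and the repressor Nr1d1 fell by 0.88 ± 0.13. Clock stood at 62.4, 82.8 and 63.1 CPM and at 128, 160 and 181 (1.17 ± 0.14; edgeR adjusted p = 0.00119), its partner Arntl did not pass (-0.02 ± 0.13; edgeR adjusted p = 0.94), and Npas2, which can replace Clock, fell by 0.90 ± 0.13. The transactivator and its substitute thus moved in opposite directions.

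Genes with which astrocytes contact synapses fell in 24 of 41 and rose in 3 (median -0.61), with 14 steady, and 16 falls without the block. Bcan, the brevican of perineuronal matrix, stood at 1421, 1316 and 2056 CPM and at 556, 435 and 442 (-1.72 ± 0.21; edgeR adjusted p = 0.00115). Adgrl1, a latrophilin, stood at 505, 418 and 482 CPM and at 234, 187 and 200 (-1.18 ± 0.13). Neither gene overlapped between hemispheres. Lsamp, an immunoglobulin adhesion protein, fell by 1.33 ± 0.16, and Nlgn3, a neuroligin, by 1.36 ± 0.18. Those that rose, Nrcam, Lrrtm2 and Cadm3, were not called without the block. Of 71 potassium channel genes 16 fell and 2 rose (median -0.47), with 9 falls without the block and 10 without mouse 474. Kcnk1, a background leak channel of astrocytes, fell from 317, 202 and 329 to 142, 96.6 and 90.2 CPM (-1.36 ± 0.18). Kcnj10, the Kir4.1 channel that clears potassium, did not pass (-0.41 ± 0.14; edgeR adjusted p = 0.062). Kcna3, a voltage-gated channel also of microglia and T cells, rose from 0.783, 1.11 and 0.248 to 3.31, 7.01 and 7.48 CPM (3.03 ± 0.53).

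Receptors for transmitters and peptides fell in 17 of 56 and rose in 8. Without the block 11 fell and 5 rose, without mouse 297 13 fell and 4 rose, and without mouse 474 10 fell and 3 rose. Grin2c, an NMDA receptor subunit of astrocytes, stood at 525, 483 and 742 CPM and at 209, 189 and 197 (-1.53 ± 0.16; edgeR adjusted p = 0.000919). Gabbr2, of the GABA-B receptor, stood at 106, 219 and 220 CPM and at 71.1, 64.2 and 73.8 (-1.31 ± 0.25). All ipsilateral libraries lay below the contralateral ones. Among the rises, P2ry2, a receptor for ATP and UTP, went from 8.18, 5.24 and 2.48 to 22.9, 15.7 and 13.7 CPM (1.80 ± 0.29; edgeR adjusted p = 0.00336). Avpr1a, a vasopressin receptor, had 2 contralateral counts in all and 154 ipsilateral ones, at which it stood at 5.12, 3.95 and 2.82 CPM. Piezo1, a channel opened by membrane stretch, rose from 65.6, 81.2 and 69.5 to 129, 157 and 152 CPM (1.02 ± 0.15; edgeR adjusted p = 0.00239), while the calcium pump Atp2b2 fell by 1.22 ± 0.20.

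In cytokine signalling single receptor genes changed in both directions. Of 33 genes of the JAK-STAT3 pathway 17 rose (51.5% against 14.7% of all genes), with a median of 0.42. The 5 falls (15.2%) were near the 15.1% of all genes. Without mouse 474 10 rose, and without the block 3 fell. Stat3 stood at 367, 258 and 218 CPM and at 616, 514 and 485 (0.97 ± 0.12; edgeR adjusted p = 0.00139), and its feedback inhibitor Socs3 rose by 1.08 ± 0.17. Il6st, the shared signalling chain gp130, rose by 0.77 ± 0.12. Cntfr, the receptor subunit for ciliary neurotrophic factor, fell from 229, 219 and 350 to 88.9, 83.3 and 86.5 CPM (-1.59 ± 0.16; edgeR adjusted p = 0.000873), and Il11ra1, for interleukin 11, fell from 67.7, 48.0 and 61.1 to 33.7, 30.1 and 31.8 (-0.87 ± 0.12). Lif, a ligand of this receptor family, rose from 5.13, 2.38 and 2.98 to 20.8, 14 and 20.1 CPM (2.42 ± 0.23). Of 25 feedback genes of MAPK signalling 12 rose and 2 fell (median 0.58), with 7 rises without mouse 297. The phosphatase genes Dusp2 (2.83 ± 0.27), Dusp7 (0.95 ± 0.18) and Dusp6 (0.59 ± 0.12) were among them. Immediate early genes moved less at 24 h: 9 of 31 rose and 0 fell, 2 without the block (Fosl1 and Myc), 6 without mouse 297 and 4 without mouse 474. Fosl1, an AP-1 component, stood at 3.04, 0.397 and 0.0827 CPM and at 38.0, 25.5 and 37.0 (5.07 ± 0.58; edgeR adjusted p = 0.0014).

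Targets of YAP and TAZ rose in 10 of 31 and fell in 5. Without the block 6 rose, without mouse 297 2 fell, and without mouse 474 3 rose and 2 fell. Amotl1, a junction protein that binds YAP, rose by 1.60 ± 0.19, and F3, tissue factor, fell by 0.98 ± 0.15, from 596, 427 and 515 to 348, 216 and 228 CPM. Genes that respond to TGF-beta or BMP rose in 8 of 37 and fell in 6. Without the block 5 rose and 3 fell, without mouse 297 4 rose and 3 fell, without mouse 474 3 rose and 2 fell, and without mouse 296 4 rose. Tgfbi, a matrix protein that TGF-beta induces, stood at 27.9, 20 and 15.7 CPM and at 112, 168 and 139 (2.74 ± 0.24; edgeR adjusted p = 0.000842), with every ipsilateral library above every contralateral one. Id4, a BMP target, fell by 1.15 ± 0.15.

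Mediators of cell death rose in 19 of 40 and fell in 2 (median 0.44), 15 of the rises being steady. The kinase and the effector of necroptosis, a lytic form of death, were among them. Ripk3, the kinase, stood at 1.39, 0.794 and 0.827 CPM and at 3.47, 3.95 and 3.74 (1.90 ± 0.32; edgeR adjusted p = 0.00375), and Mlkl, the effector, at 0.783, 1.11 and 1.16 and at 2.84, 3.79 and 3.39 (1.71 ± 0.30). The levels are low, with every ipsilateral library above every contralateral one. The inflammasome genes Nlrp3 (17.7, 10.8 and 7.44 against 48.7, 55.5 and 30.4 CPM; 1.94 ± 0.29) and Pycard (1.70 ± 0.26) rose, as did Casp4 (1.99 ± 0.35). Microglia express these genes too, and microglial markers rose in sum in the same libraries, from between 659 and 790.5 CPM to between 1322 and 1985. Mcl1, which protects against apoptosis, rose from 243, 151 and 131 to 418, 344 and 327 CPM (1.10 ± 0.14; edgeR adjusted p = 0.00126). Of 30 targets of p53 11 rose and 2 fell (median 0.40), with 6 rises without mouse 297 and 7 without mouse 474. Aen, an exonuclease of this response, stood at 28.3, 17.3 and 22.7 CPM and at 48.1, 74.6 and 91.4 (1.63 ± 0.29). Cdkn1a, the cell cycle inhibitor, did not pass (0.74 ± 0.34; edgeR adjusted p = 0.141). Contralaterally it stood at 1233, 322 and 143 CPM, and ipsilaterally at 1108, 606 and 395. Its contralateral level in mouse 296 thus exceeded every ipsilateral one. Genes of replication and mitosis rose in 7 of 46 (15.2%, near the 14.7% of all genes, and in 3 without the block and 4 without mouse 297 or 474). Pcna and Mcm5, of the replication fork, were steady.

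The actin cytoskeleton rose in 23 of 50 genes and fell in 4 (median 0.47), with 14 rises without the block and 15 without mouse 297 or 474. Actr2 and Actr3, of the complex that branches actin filaments, rose by 0.89 ± 0.10 and 0.90 ± 0.10, the first from 85.2, 91.8 and 88.7 to 147, 178 and 169 CPM (edgeR adjusted p = 0.000942). Moesin (Msn), which ties actin to the membrane, stood at 277, 202 and 131 CPM and at 527, 512 and 545 (1.44 ± 0.21). Myl9 and Tpm2, abundant in smooth muscle, fell by 1.30 ± 0.16 and 0.95 ± 0.15, and markers of smooth muscle and pericytes fell in the same libraries. Integrins rose in 8 of 21 and fell in 1, with 4 rises without mouse 474. Itga5, of the fibronectin receptor, stood at 38.2, 23.5 and 16.6 CPM and at 126, 99.9 and 80.6 (2.02 ± 0.15; edgeR adjusted p = 0.000614). Itgax and Itgb2, integrins of leukocytes and microglia, rose by 3.46 ± 0.46 and 1.85 ± 0.33. Cadherins fell in 10 of 49 (6 on log2(TPM + 1)) and rose in 6 (3 without mouse 296 and 2 without mouse 474), and Cdh2, N-cadherin, stood at 202, 191 and 211 CPM and at 135, 125 and 145 (-0.58 ± 0.10). Transport genes of the primary cilium, where Hedgehog receptors signal, fell in 12 of 55 and rose in 0 (median -0.35), with 8 falls without the block, 6 without mouse 296, 4 without mouse 297 and 6 on log2(TPM + 1). The cilium medians were -0.20, -0.86 and 0.02 in the 3 mice. Dnah genes, the dynein heavy chains of motile cilia, had medians of -0.23, -1.92 and 0.52, with 1 of 16 lower. Both sets were thus lowest in mouse 297. The summed markers of choroid plexus and ependyma, which are ciliated, stood at 4470, 7052 and 8086 CPM contralaterally and at 6276, 3645 and 3310 ipsilaterally. Their median log2 ratios were -0.50, -1.67 and -0.41. The part of ciliated cells in the cilium falls was not tested.

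Lysosomal genes divided evenly, with 10 of 50 higher and 10 lower (median -0.06), and with 6 rises without the block and 5 without mouse 297, and 4 falls without mouse 474. The cathepsins Ctsb, Ctsl, Ctsz, Ctsc and Ctss and the macrophage marker Cd68 rose. Ctsb stood at 863, 685 and 818 CPM and at 1198, 2057 and 1813 (1.07 ± 0.21; edgeR adjusted p = 0.00718), and Cd68 at 38.0, 15.6 and 13.9 and at 70.7, 118 and 91.5. Among the falls, Gaa, acid glucosidase, went from 326, 288 and 310 to 194, 200 and 204 CPM (-0.63 ± 0.10), and Smpd1, acid sphingomyelinase, fell by 0.69 ± 0.13. Cathepsins and Cd68 are abundant in microglia and macrophages, whose markers were higher in the same libraries. Of the cathepsins, Ctss and Ctsz were lost without the block (edgeR adjusted p = 0.0951 and 0.0732), Ctss also with any mouse left out, Ctsz without mouse 297 (0.075) and Ctsl without mouse 474 (0.051). Autophagy genes rose in 2 of 41 (4.88% against 14.7% of all genes) and fell in 6 (14.6%, near the 15.1% of all genes). The numbers were 0 and 3 without the block, 0 and 4 without mouse 297 and 0 and 1 without mouse 474.

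Outside the lists, the steady rises with the smallest adjusted p included Ucn2, Cd72, Neto2, Rcan1 and Runx1. Ucn2, the peptide urocortin 2, stood at 0.174, 0.953 and 0.579 CPM contralaterally and at 9.77, 36.9 and 38.1 ipsilaterally (5.62 ± 0.30; edgeR adjusted p = 0.000198). Cd72, best known from B cells, rose from 0.261, 0.635 and 0.331 to 15.4, 33.1 and 23.1 CPM (5.84 ± 0.33). Rcan1, an inhibitor of calcineurin, rose from 52.7, 42.7 and 44 to 132, 124 and 113 CPM (1.41 ± 0.10), with a narrow spread on both sides. Steady falls included Aifm3, Apc2, Chst1 and Psd2. Psd2, an exchange factor for the GTPase ARF6, stood at 284, 289 and 421 CPM and at 105, 94.8 and 116 (-1.63 ± 0.15; edgeR adjusted p = 0.000783), and Aifm3 at 342, 250 and 303 and at 104, 62.2 and 76.7 (-1.90 ± 0.17). All of these genes, which were picked for a small adjusted p, stood apart between hemispheres.

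Gene families taken by the letters that open their symbols gave 172 groups with at least 10 tested members. The highest medians were those of Ccl chemokines (2.05; 9 of 15 higher and 1 lower), Tlr receptors of innate immunity (1.17; 4 of 11 higher), Tnfrsf receptors (0.93; 8 of 15 higher, 2 lower, with 0 lower without the block), Nol (0.56; 6 of 10 higher, 1 lower, with 2 rises without mouse 297 and 4 without mouse 474) and Rpl (0.52; 20 of 48 higher, with 2 without mouse 297 and 3 without mouse 474). The Tlr family rose through Tlr1, Tlr2, Tlr4 and Tlr13, and Ccl through members such as Ccl2, Ccl5 and Ccl11. Markers of microglia and of monocytes and macrophages were higher in the same libraries (7 of 15 and 7 of 11 called, 1 and 3 without the block). Their part in the rise of these families was not tested. The lowest medians were those of Nat, with the N-acetyltransferases of the Nat8 family (-0.83; 10 of 15 lower, with 5 without the block and 6 without mouse 474), Car carbonic anhydrases (-0.77; 5 of 14 lower, with 3 without the block or without mouse 297 or 474), Wnt ligands (-0.73; 4 of 11 lower, with 2 without the block), Cfap cilium proteins (-0.64; 1 of 25 lower, with 6 without mouse 474, and medians of -0.33, -1.83 and 0.28 in the 3 mice) and Cyp cytochromes (-0.56; 10 of 25 lower, 3 higher, with 1 higher without the block or without mouse 297). Nat8f1, an acetyltransferase of the endoplasmic reticulum, stood at 36.3, 49.0 and 81.9 CPM and at 11.3, 15.5 and 18.7 (-1.83 ± 0.15; edgeR adjusted p = 0.000763). The Nat8 family has several near-identical copies, so reads may be split among them. The summed markers of choroid plexus and ependyma, ciliated tissues, went from 7052 to 3645 CPM in mouse 297, where the Cfap median was lowest, and from 8086 to 3310 in mouse 474, where it was above 0, and their part in it was not tested.

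The 3 mice resembled each other in the genes that moved and differed in the size of the response. Across the 15571 genes, which are not independent, the log2 ratios of mice 296, 297 and 474 correlated pairwise at 0.636, 0.614 and 0.639. The median size of the log2 ratio was 0.327 in mouse 296, 0.472 in mouse 297 and 0.415 in mouse 474. Over the lists, ribosome assembly, identity factors and fatty acid oxidation had medians of 1 sign in all 3 mice, whereas oxidative phosphorylation, mitochondrial ribosomes, cadherins and cilium genes did not. The synthetase medians were 0.37, 0.91 and 0.79. The ratios of mice 297 and 474 rest on the pairing by title number, which the data bear out less for mouse 297: the deviations of its own 2 libraries correlated at -0.04, against 0.49 and 0.29 for its libraries crossed with those of mouse 474.

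**Figure D5:**
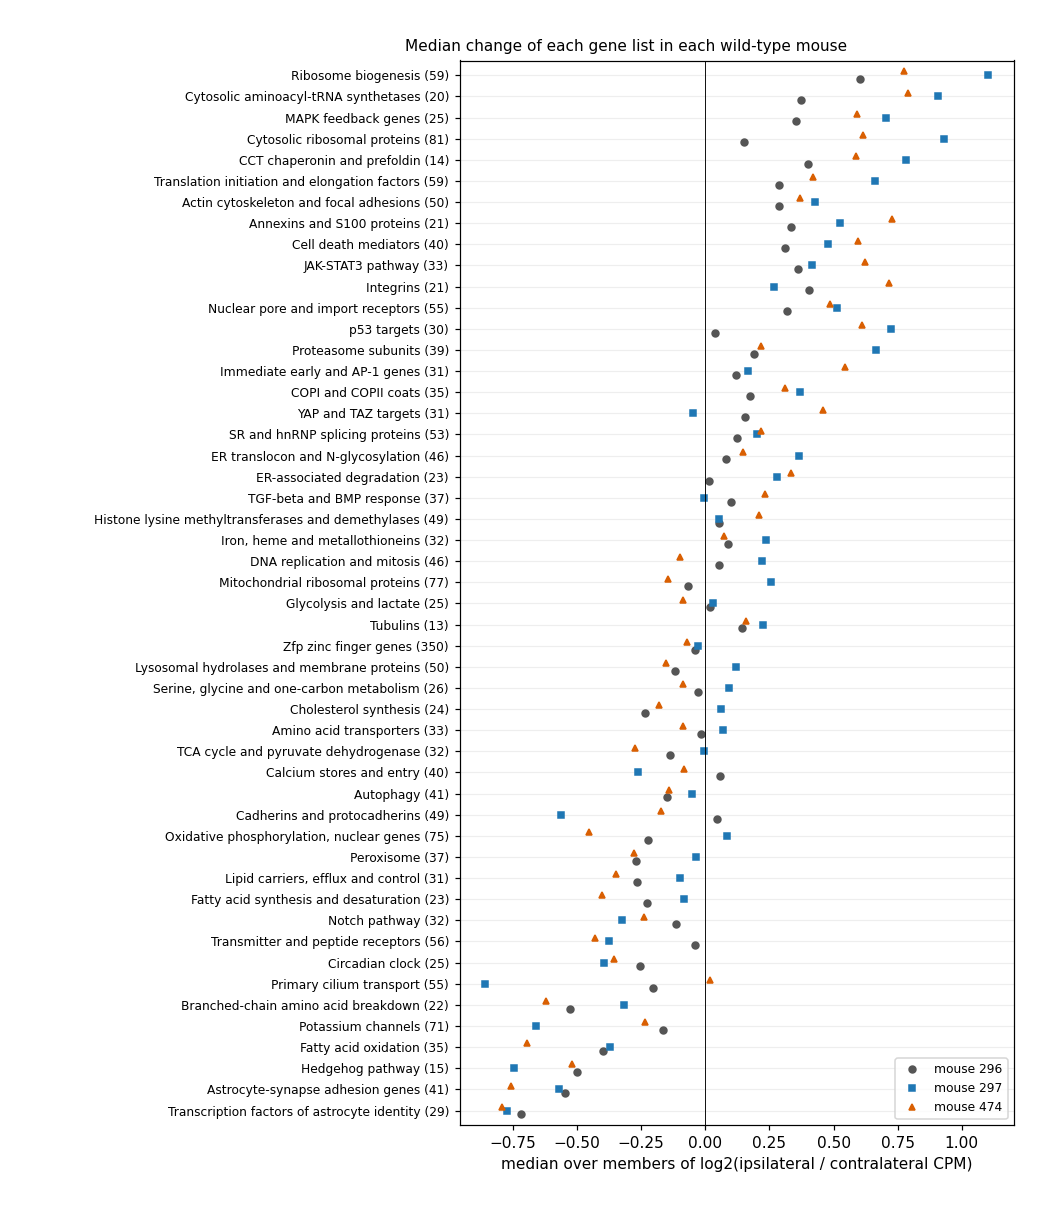
Median log2 ratio of ipsilateral to contralateral CPM over the members of each list in mice 296 (circles), 297 (squares) and 474 (triangles), in the order of the list medians. Ribosome assembly lies right of 0 and identity factors left of 0 in every mouse. Cilium transport and oxidative phosphorylation lie on both sides.

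The response of wild-type mice was set against that of mice labelled KO in the same model. No gene passed in edgeR (0 of 15571, 0%), with 1553 (9.97%) at an unadjusted p under 0.05. DESeq2, which gave an adjusted p to 5005 genes, called 98 (1.96%). The changes above are therefore not shown to be particular to wild-type mice.

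Of the other motifs searched in the promoter windows, on both strands, the AP-1 site TGANTCA stood in 449 of 9294 windows (4.83%), in 7.50% of the windows of genes called higher and in 3.89% of those called lower. The antioxidant response element TGACNNNGC, which shares a window with AP-1 in 84 genes, was in 14.5%, 16% and 13.4%. The TATA box TATAAA was in 7.23%, 10.3% and 5.91%. Median GC content of the windows was 60.7% over all genes, 61.3% for those higher and 60.7% for those lower. A match describes these letters in this window and is no evidence of binding.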

How the data were processed

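Libraries were sequenced on a HiSeq 2500, per the labels. The authors deposited 1 table per library with counts, TPM and RPKM per gene. The submitters' processing notes name the mm10 build. Aligner, counter and strand setting were not given in the sources used here. The counts as deposited by the authors were tested. The deposited TPM served an alternative, and the deposited RPKM, per the file headers, only a check of the share of reads the counts hold. The floxed gene and some genes that the naming rule selects are not reported here.

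Genes were filtered with edgeR 4.0.16 (filterByExpr, minimum count 10, R 4.3.3), scaled by TMM and fitted over all 12 libraries by the robust quasi-likelihood test with the mouse as a block and 1 ipsilateral term per group (4 residual degrees of freedom). The adjustment was that of Benjamini-Hochberg over 15571 genes, with a threshold of 0.05. Libraries with the same number in the title were taken to come from 1 animal and were paired. The correlation of their deviations from the group means over 12551 genes was 0.70 in mouse 296, -0.04 in mouse 297 and 0.44 in mouse 474. Contralateral 297 correlated with ipsilateral 474 at 0.49 and contralateral 474 with ipsilateral 297 at 0.29, so the pairing of mouse 297 is uncertain. The mice are separate animals, and KO libraries contribute to the estimate of the spread. On simulated data for this comparison with 15571 genes, the test called 61.6% of 99 genes changed 2-fold, 93.0% of 100 changed 4-fold and 0.0657% of unchanged genes. Of the genes called there, 6.10% were unchanged ones. Far fewer genes were changed in the simulation than the 4641 called in the data, so these shares need not hold for the data. Precision is limited by 3 mice and by totals of 11935558 to 13448183 counts.

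Members and lists were chosen with earlier results of these data known. Named by rule were up to 4 members per list that were called in the blocked fit, without the block and without each mouse, with the smallest adjusted p (up to 2 called members where none were), and 10 such genes per direction outside the lists. Alternatives were the fit without the block, only the 6 wild-type libraries, DESeq2 1.42.0, limma-voom 3.58.1, other scalings and filters, each mouse left out, an oligodendrocyte marker covariate, and limma-trend on log2(TPM + 1), keeping genes at or over 1 TPM in 3 libraries. Promoter windows came from RefSeq (GRCm38.p6).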

Additional observations from a re-analysis of the deposited data

Results flagged for a closer look

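In Ndufa13, a subunit of respiratory complex I, and Thy1, a surface protein best known from neurons, every wild-type mouse moved down while every mouse labelled KO moved up. The log2 response of wild-type mice minus that of mice labelled KO was -1.03 for Ndufa13 and -0.99 for Thy1. Neither difference passed edgeR's test over all genes (edgeR adjusted p = 0.324 for Ndufa13 and 0.324 for Thy1). Ndufa13 fell in wild-type mice from 47.4, 49.5 and 54.2 CPM to 26.9, 37.1 and 28.2 in mice 296, 297 and 474 (-0.72 ± 0.16), and Thy1 from 38.2, 33.5 and 50.3 to 22.9, 26.1 and 27.8 (-0.65 ± 0.15). Neither fall was steady. Without mouse 474, 0 of 75 genes of oxidative phosphorylation and 0 of 14 neuron markers were called lower. Without mouse 296 the number of neuron markers lower was 0 as well. These genes were found by looking through 211 named genes.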

How the results depend on the processing

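The blocked fit called 4641 genes in wild-type mice (2289 higher and 2352 lower), and the fit without the mouse as a block called 2982 (1497 higher and 1485 lower), 2957 of them among the 4641. Fits with 1 mouse left out called between 2629 and 3696 genes (1194 to 1940 higher and 1435 to 1756 lower), which held 2397 to 3368 of the 4641. DESeq2 called 3959 of the 4641, the log2(TPM + 1) fit 3720, the fit of the 6 wild-type libraries alone 3590, limma-voom 4578, RLE or upper-quartile scaling 4597 each, and the oligodendrocyte covariate 4493. No called gene changed sign in any of these settings. The difference between wild-type mice and mice labelled KO passed for 0 genes with edgeR (1553 at an unadjusted p under 0.05), 98 with DESeq2 and 1 with the oligodendrocyte covariate, and the cause was not tested. The paired libraries of mouse 297 did not deviate together (-0.04), whereas its libraries deviated with those of mouse 474 (0.49 and 0.29), so the values per mouse of both and the calls of the blocked fit rest on the title numbers. Only 3 mice and 1 time point were available, and genes near the count minimum have the widest errors.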

Other observations

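The following single genes with low contralateral counts were chosen after their values were seen and stand for no group. Vgf, a precursor of neuropeptides, stood at 2.44, 0.238 and 0.496 CPM contralaterally and at 14.5, 26.2 and 29.7 ipsilaterally in mice 296, 297 and 474 (4.54 ± 0.82; edgeR adjusted p = 0.00652). Scg2, secretogranin 2, stood at 3.48, 1.98 and 1.82 CPM and at 11.1, 12 and 13.2 (2.35 ± 0.44; edgeR adjusted p = 0.00664). Nmu, neuromedin U, had 2 contralateral counts in all and 115 ipsilateral ones. Sstr5, a somatostatin receptor, had 1 count contralaterally and 280 ipsilaterally, where it stood at 0.236 CPM in mouse 296 and at 10.7 and 10.2 in mice 297 and 474. The protease Klk7 had 2 and 187 counts, and the transporter Slc16a14 3 and 257.

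Among antisense and lincRNA genes more were called lower than higher. Of 243 antisense genes 50 were called lower (20.6%) and 12 higher (4.94%), with a median log2 fold change of -0.60, and 23 to 32 were lower when a mouse was left out (30 without the block). Of 374 lincRNA genes 55 were lower (14.7%) and 15 higher (4.01%), with 23 to 41 lower when a mouse was left out and 34 without the block. Among 14600 protein-coding genes 15% were lower and 15.3% higher. The lincRNA genes were thus lower about as often as protein-coding ones, and only their rises were fewer. Median levels were 1.57 CPM for antisense, 1.63 CPM for lincRNA and 28.9 CPM for protein-coding genes. Without knowledge of strand, antisense reads cannot be told apart from those of the partner gene.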
